A study of Mus musculus with 8 samples.

Results

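The miR-10, miR-99, miR-100 and miR-125 group was described here across 8 mouse livers by 8 mature microRNAs (miRNAs): mmu-miR-10a-5p, mmu-miR-10b-5p, mmu-miR-99a-5p, mmu-miR-99b-5p, mmu-miR-99b-3p, mmu-miR-100-5p, mmu-miR-125a-5p and mmu-miR-125b-5p. The prefix mmu, for mouse, is mostly left out below. They were chosen by name for related sequence and shared gene clusters, and are 8 of the 443 mature sequences in the count table. The livers were of C57BL/6J males (a common inbred strain) aged 10 to 11 weeks. Of the samples, 4 came from mice fed a high-fructose diet (HFrD), which the labels call a model of non-alcoholic fatty liver disease, and 4 from mice fed a normal chow diet. Both diets were fed for 2 weeks. HFrD held 10% of its energy as fat, 70% as carbohydrate and 20% as protein. The sources used here do not give the composition of the chow, and fructose cannot be told apart from other differences between the diets. The labels number the samples within a diet and do not say whether each is a separate mouse. The p-values therefore cover only the spread among the 8 libraries, which may be technical.

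A miRNA is a short RNA cut from a hairpin precursor, and it guides Argonaute proteins to messenger RNAs that pair with its seed, the bases near its 5′ end. The hairpin has 2 arms, named 5p and 3p, of which usually only one is kept in quantity. miR-10, miR-99 and miR-100 belong to one ancient family, and miR-125 is the vertebrate relative of lin-4, the first miRNA described in the worm Caenorhabditis elegans. The precursors of miR-99 or miR-100, a let-7 and miR-125 lie side by side in vertebrate genomes, while those of miR-10 lie inside the Hox gene clusters, which pattern the body axis. In adult tissue miR-10, miR-99a, miR-100 and miR-125b are known from endothelial, stromal and epithelial cells as well as from hepatocytes.

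The mature sequences show how close the members are and why their counts have to be read together. They are printed 5′ to 3′ with the seed, bases 2 to 8, in capitals, as RefSeq gives them on GRCm38.p6. All 8 matched the sequences deposited with the counts.
miR-10a-5p: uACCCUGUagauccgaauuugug
miR-10b-5p: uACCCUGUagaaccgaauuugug
miR-99a-5p: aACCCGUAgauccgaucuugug
miR-99b-5p: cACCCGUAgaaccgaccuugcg
miR-100-5p: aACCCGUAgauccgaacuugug
miR-125a-5p: uCCCUGAGacccuuuaaccuguga
miR-125b-5p: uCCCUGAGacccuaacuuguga
miR-99b-3p: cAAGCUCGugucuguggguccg

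These sequences fall into 4 seed groups. miR-10a-5p and miR-10b-5p share the seed ACCCUGU and differ at 1 base, U12A, where positions are counted from 1 at the 5′ end and the base of miR-10a-5p is given first. miR-99a-5p, miR-99b-5p and miR-100-5p share ACCCGUA. miR-99a-5p differs from miR-100-5p at 1 base, U16A, and from miR-99b-5p at 4 bases, A1C, U11A, U16C and U21C. miR-10a-5p and miR-100-5p are 3 insertions, deletions or substitutions apart but have different seeds. miR-125a-5p and miR-125b-5p share CCCUGAG and their first 13 bases. miR-99b-3p, the opposite arm of the miR-99b hairpin, has the unrelated seed AAGCUCG. The sources used here do not give the rule for reads that fit several miRNAs, and a misassigned read between members 1 base apart cannot be told apart from a true one.

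The 3 hairpins below show where the arms lie, with both annotated arms in capitals. Mir100 and Mir99a give the pair of most abundant members, and Mir125a gives the member for which a shortened form was listed as well.
Mir100: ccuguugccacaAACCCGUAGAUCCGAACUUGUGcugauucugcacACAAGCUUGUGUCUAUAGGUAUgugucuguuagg
Mir99a: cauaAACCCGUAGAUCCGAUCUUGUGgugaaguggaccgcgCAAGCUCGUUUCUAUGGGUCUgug
Mir125a: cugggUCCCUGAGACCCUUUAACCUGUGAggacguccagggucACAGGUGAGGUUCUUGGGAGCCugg

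Their genes, all on the plus strand of GRCm38 (GENCODE M21), lie in 3 clusters and at 2 Hox loci. On chromosome 9, Mir100 (41531425 to 41531504) is followed by Mirlet7a-2 and, 50501 bases from the start of Mir100, by Mir125b-1 (41581926 to 41582002). These lie in introns of the non-coding transcripts 3110039I08Rik and Gm49317. Mir100 also lies opposite an exon of Gm48742, and Mir125b-1 also overlaps an exon of Gm28119 on the same strand. On chromosome 16, Mir99a (77598936 to 77599000) is followed by Mirlet7c-1 after 721 bases and by Mir125b-2 (77646273 to 77646343) after 47337 bases. These lie in introns of the non-coding host gene Mir99ahg. Mir99a and Mirlet7c-1 also lie opposite an intron of the protein-coding Gm11146, and Mir125b-2 also overlaps an exon of C130023A14Rik on the same strand. On chromosome 17, Mir99b (17830188 to 17830257), Mirlet7e and Mir125a (17830812 to 17830879) sit within 692 bases. The first and the second of these lie in an intron of Spaca6 and Mir125a overlaps an exon of it. Mir10a lies on chromosome 11 (96317165 to 96317274), between genes and 993 bases from Hoxb4. Mir10b lies on chromosome 2 (74726070 to 74726137), in an intron of annotated transcripts of Hoxd3 and Hoxd4. miR-125b-5p is identical from both of its precursors, so its counts may come from the cluster on chromosome 9, that on chromosome 16 or both.

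**Figure D1:**
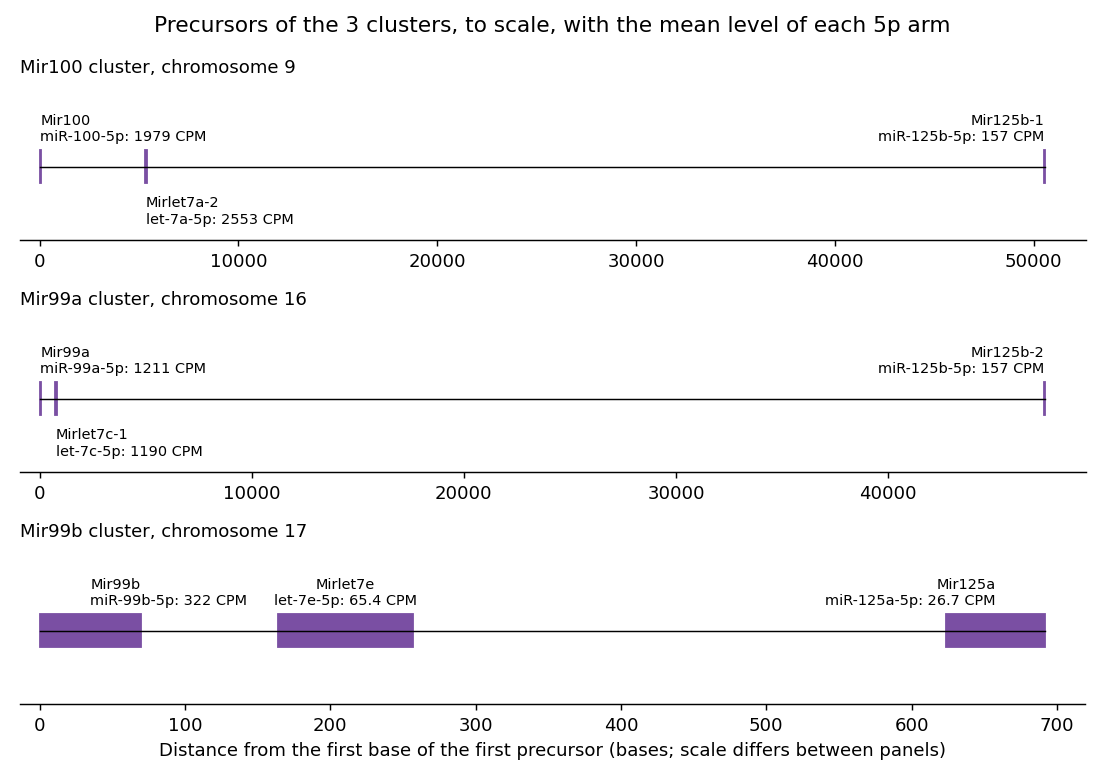
Each panel shows one cluster, with precursors as bars at their distance in bases from the first base of the first precursor, and the mean CPM (the scaled count per library described next) of the 5p arm over all 8 samples. In each cluster the miR-125 level is below that of miR-99 or miR-100, with 157 CPM for miR-125b-5p and 1979 CPM for miR-100-5p on chromosome 9, and miR-125b-5p, let-7a-5p and let-7c-5p each have further precursors whose counts cannot be separated.

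Levels are given as CPM, the usual counts-per-million scale, in which the tags of a mature miRNA are set against all tags of its library, with the library size scaled by trimmed-mean-of-M-values (TMM) factors. A tag stands for a whole mature miRNA of 22 to 24 bases here, so no correction for length was made. Sequencing libraries take up some miRNAs better than others, so levels of different miRNAs are compared as tag counts. Library totals ran from 1120035 to 1638036 counts, which makes 1 count worth 0.610 to 0.893 CPM of the library total. The smallest count listed was 2, and blank cells were read as 0. The livers carried the miRNAs of hepatocytes: miR-122, miR-192, miR-194 and miR-148a together held 581254 to 627727 CPM in HFrD and 615774 to 704210 CPM in chow, and 1 of the 5 hepatocyte markers, miR-122-3p, was called as lower.

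The 8 members together held 0.448% ± 0.0545 (SD, n = 4) of all counts in HFrD and 0.433% ± 0.0293 (SD, n = 4) in chow. The seed group of miR-99 and miR-100 made up most of this, 80.2% ± 1.70 of the members' counts in HFrD and 79.6% ± 0.270 in chow. miR-10 made up 14.9% ± 1.26 in HFrD and 16.1% ± 0.395 in chow, and miR-125 4.52% ± 0.625 in HFrD and 3.86% ± 0.298 in chow (SD, n = 4 each). These shares were described and not tested. The log2 ratio of the summed share, HFrD over chow, was 0.04. It was −0.08 over TMM-scaled library sizes, where the members summed to 4274 ± 264 CPM in HFrD and 4518 ± 224 CPM in chow (SD, n = 4 each), and −0.03 without HFrD replicate 1, so its direction was not settled.

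The members covered a wide range of levels. Over all 8 samples miR-100-5p averaged 1979 CPM and ranked 18th among all sequences by total count. It was followed by miR-99a-5p (1211 CPM), miR-10a-5p (619 CPM), miR-99b-5p (322 CPM), miR-125b-5p (157 CPM), miR-10b-5p (61.8 CPM), miR-125a-5p (26.7 CPM) and miR-99b-3p (19.5 CPM). The ranges of neighbours in this order over the 8 samples did not overlap, except for miR-125a-5p (18.2 to 33.4 CPM) and miR-99b-3p (12.1 to 26.3 CPM). The paralogs were therefore unequal in tag counts, least so miR-100-5p and miR-99a-5p, with a ratio of 1.36 to 1.86 over the 8 samples. Counts of miR-10a-5p were 10.0 ± 1.06 times those of miR-10b-5p in HFrD and 10.2 ± 1.85 times in chow. Counts of miR-125a-5p were 0.152 ± 0.0341 of those of miR-125b-5p in HFrD and 0.196 ± 0.0335 in chow (SD, n = 4 each).

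**Figure D2:**
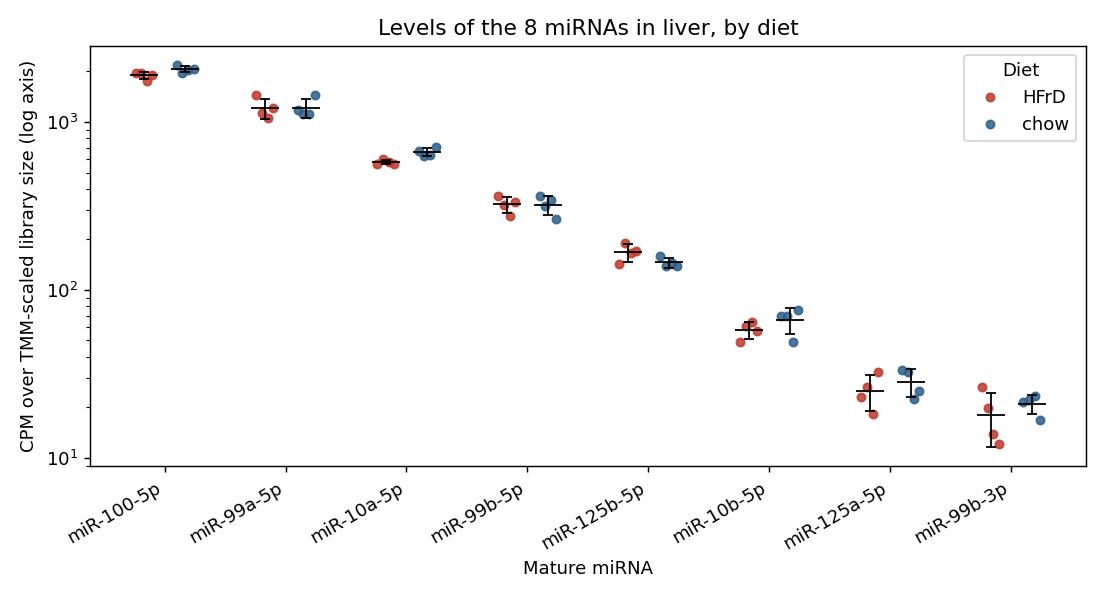
Points are the 4 HFrD and 4 chow samples for each member, as CPM over the TMM-scaled library size on a log axis, and bars are mean ± SD. The members span about 1979 to 19.5 CPM, and the diets of one member lie closer together than neighbouring members do, except for the 2 rarest.

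No member passed the comparison of diets. Differences between the diets were tested with edgeR's quasi-likelihood test across the 170 sequences that passed a filter on low counts, with Benjamini-Hochberg adjusted p under 0.05 as the threshold. All 8 members passed the filter. edgeR called 10 of the 170 sequences, 5.88%, and 0 of the 8 members. The calls were higher in HFrD for 2.35% of the sequences and lower for 3.53%. At an unadjusted p under 0.05 there was 1 member, miR-10a-5p, against 23.5% of all sequences. DESeq2 likewise called 0 members, with 1 at an unadjusted p under 0.05. In 2 members, miR-10a-5p and miR-100-5p, the CPM ranges of the diets were apart, which held for 14.1% of all sequences. The median log2 fold change (HFrD over chow) was −0.16 over the members and 0.01 over all sequences tested, with 3 members above 0 and 5 below.

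**Figure D3:**
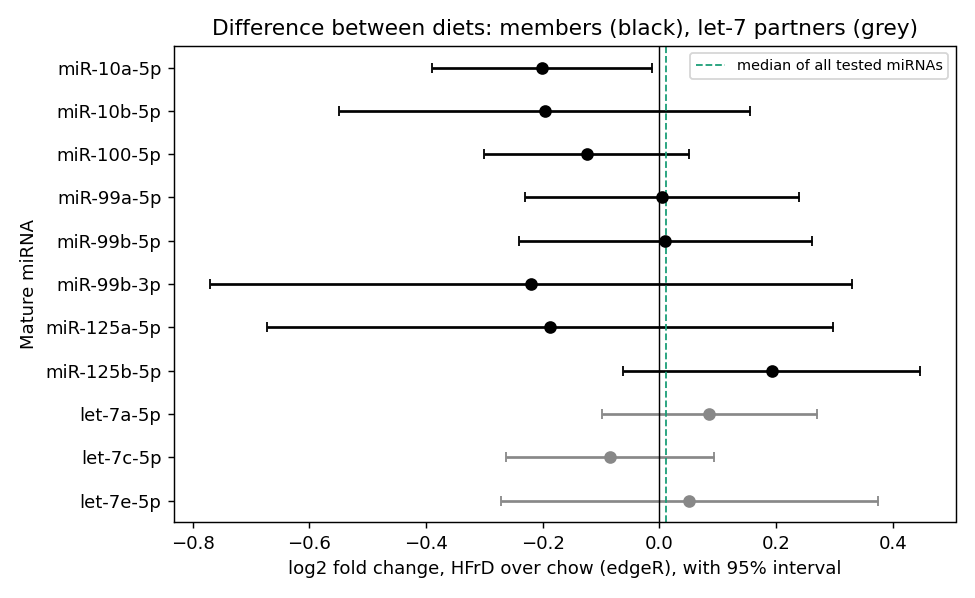
Points are log2 fold changes of HFrD over chow from edgeR with 95% intervals, for the 8 members in black and the let-7 miRNAs of their clusters in grey, and the dashed line is the median of all sequences tested. Values run from −0.22 for miR-99b-3p to 0.19 for miR-125b-5p, and the interval of miR-10a-5p alone stays on one side of 0 before adjustment.

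mmu-miR-10a-5p, a miRNA of the Hoxb cluster, was measured at 564, 599, 578 and 564 CPM in HFrD replicates 1 to 4 and at 670.4, 627, 639 and 712 CPM in chow replicates 1 to 4. On this scale the highest HFrD sample was below the lowest chow sample. The log2 fold change was −0.20 (SE 0.090, 95% interval −0.39 to −0.01, unadjusted p = 0.0381, adjusted p = 0.175, edgeR), or 0.870-fold. The spread within a diet was small, with a coefficient of variation of 2.88% in HFrD and 5.70% in chow, where counting alone gives 3.51% in HFrD and 3.53% in chow. Over library totals the groups overlapped, and the log2 fold change was −0.08 (adjusted p = 0.652, edgeR). miR-10b-5p, the paralog in the Hoxd cluster, had 48.7, 60.8, 64.1 and 56.7 CPM in HFrD, against 70.1, 69.6, 49.0 and 75.6 CPM in chow. Here the diets overlapped through chow replicate 3, which was low. Its log2 fold change was −0.20 (SE 0.17, 95% interval −0.55 to 0.16, adjusted p = 0.483, edgeR). When a library was left out it ran from −0.32 without chow replicate 3 (adjusted p = 0.195, edgeR) to −0.10 without HFrD replicate 1 (adjusted p = 0.749, edgeR).

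mmu-miR-100-5p, the most abundant member, had 1963, 1947, 1751 and 1916 CPM in HFrD, against 2183, 1964, 2037 and 2073 CPM in chow. HFrD replicate 1 and chow replicate 2 almost met. The log2 fold change was −0.12 (SE 0.083, 95% interval −0.30 to 0.05, adjusted p = 0.412, edgeR), and over library totals it was 0.001, with overlapping groups. miR-99a-5p, which differs from it at 1 base, had 1445, 1131, 1063 and 1212 CPM in HFrD, against 1171, 1116, 1113 and 1439 CPM in chow. HFrD replicate 1 and chow replicate 4 stood highest and the groups overlapped. The log2 fold change was 0.00 (SE 0.11, 95% interval −0.23 to 0.24, adjusted p = 0.972, edgeR), and its sign turned without 4 of the 8 libraries in turn, to −0.07 without HFrD replicate 1. Its coefficient of variation was 13.7% in HFrD and 12.8% in chow, where counting gives 2.41% in HFrD and 2.62% in chow. At a similar depth miR-100-5p varied by 5.14% in HFrD and 4.43% in chow.

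mmu-miR-99b-5p, the first miRNA of the chromosome 17 cluster, had 363, 321, 276 and 333 CPM in HFrD, against 363, 316, 341 and 263 CPM in chow. The ranges were nearly the same, and the log2 fold change was 0.01 (SE 0.12, 95% interval −0.24 to 0.26, adjusted p = 0.953, edgeR). Its sign turned without HFrD replicate 1 (−0.03) and without chow replicate 4 (−0.10). The other arm, miR-99b-3p, had 26.3, 19.7, 13.8 and 12.1 CPM in HFrD, against 21.5, 22.1, 23.3 and 16.9 CPM in chow. The HFrD samples covered the whole range of chow and beyond it, on 16 to 41 counts a library. Its log2 fold change was −0.22 (SE 0.26, 95% interval −0.77 to 0.33, adjusted p = 0.597, edgeR). It was −0.46 without HFrD replicate 1 (adjusted p = 0.308, edgeR) and −0.07 without HFrD replicate 4 (adjusted p = 0.924, edgeR).

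mmu-miR-125b-5p, a relative of lin-4 with 2 genes, had 142, 190.1, 166 and 171 CPM in HFrD, against 160.0, 139, 145 and 139 CPM in chow. HFrD replicates 2 to 4 lay above all chow samples and HFrD replicate 1 lay among them. The log2 fold change was 0.19 (SE 0.12, 95% interval −0.06 to 0.45, adjusted p = 0.396, edgeR), the highest of the 8. Over library totals it was 0.31 (adjusted p = 0.154, edgeR). miR-125a-5p, its paralog on chromosome 17, had 23.1, 26.5, 18.2 and 32.5 CPM in HFrD, against 33.4, 32.3, 22.5 and 24.9 CPM in chow. The groups overlapped widely, on 28 to 43 counts a library, and the log2 fold change was −0.19 (SE 0.23, 95% interval −0.67 to 0.30, adjusted p = 0.613, edgeR). It was −0.33 without HFrD replicate 4 and −0.06 without HFrD replicate 3.

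A shortened miR-125a-5p stood in the table under another name. The authors had listed it as a predicted miRNA of chromosome 17, and it holds exactly the first 18 bases of miR-125a-5p, seed in capitals.
Predicted miRNA of chromosome 17: uCCCUGAGacccuuuaac
It had 6, 2, 2 and 4 counts in HFrD replicates 1 to 4, against 2, 0, 2 and 0 counts in chow, and did not pass the filter. With both forms summed, miR-125a-5p had 42, 33, 31 and 47 counts in HFrD, against 44, 38, 31 and 28 counts in chow, which gave a log2 fold change of −0.09 (edgeR, adjusted p = 0.801). The miR-125 seed was also carried by miR-351-5p, with at most 3 counts in a library, and by another predicted sequence, of chromosome 6, with 5 counts in HFrD replicate 2 and none listed elsewhere. No sequence predicted by the authors lay within 3 differences of a member.

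The fold changes of the members, and for miR-100-5p also the direction, depended on how the libraries were scaled. TMM factors averaged 1.05 in HFrD and 0.959 in chow, and with library totals the median of all sequences was at 0.13 in place of 0.01. All members moved up with it: 4 of 8 were then above 0, with miR-100-5p at 0.001. Relative to the median of all sequences, miR-10a-5p lay 0.17 to 0.22 below that median over the reported fit and its 18 alternatives, and miR-100-5p 0.07 to 0.15 below it. miR-125b-5p lay 0.14 to 0.26 above it. miR-10b-5p lay 0.12 to 0.30 below it, miR-125a-5p 0.04 to 0.33 below it and miR-99b-3p 0.06 to 0.48 below it. miR-99a-5p (−0.09 to 0.08) and miR-99b-5p (−0.10 to 0.09) lay on both sides of the median. None of the 8 passed the threshold under any of the 18 alternatives, and the lowest adjusted p was 0.135, for miR-10a-5p with DESeq2.

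**Figure D4:**
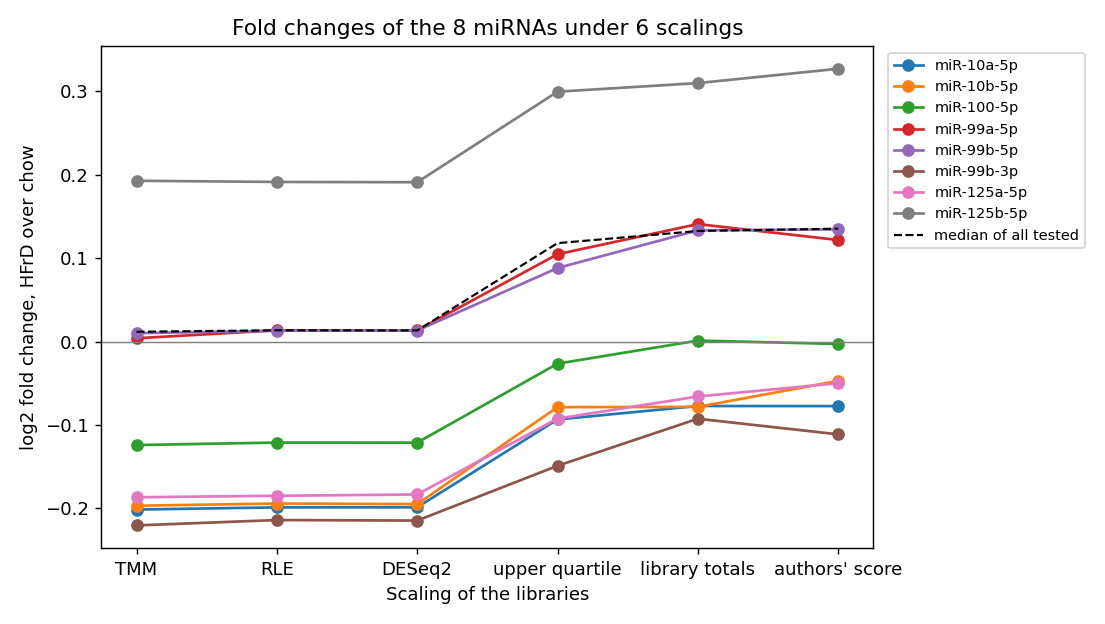
Lines join the log2 fold change of each member, HFrD over chow, under 6 ways of scaling the libraries, and the dashed line is the median of all sequences tested. The dashed line goes up from 0.01 with TMM to 0.13 with library totals, and the members go up with it while miR-10a-5p, miR-10b-5p, miR-125a-5p and the pair miR-99a-5p and miR-99b-5p, each close together, change places.

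A ratio of 2 miRNAs counted in the same library does not depend on the scaling. 10 such ratios were compared between the diets by exact permutation, two-sided, among the 70 ways to assign the samples, where p cannot go below 0.0286, with adjustment over the 10. An adjusted p under 0.05 would need at least 6 ratios at that smallest p. No ratio passed, and 0 had an unadjusted exact p under 0.05. In limma, which pools the spread over ratios that share members, 0 passed and 1 had an unadjusted p under 0.05, that of miR-125a-5p to miR-125b-5p. Differences below are in mean log2 ratio, HFrD minus chow, with limma's 95% intervals.

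Among paralogs, the miR-10a-5p to miR-10b-5p ratio differed by −0.01 (95% interval −0.34 to 0.32, exact p = 0.943, adjusted 0.971). The ratio of miR-99b-5p to miR-99a-5p differed by 0.01 (95% interval −0.32 to 0.35, exact p = 0.971, adjusted 0.971) and that of miR-100-5p to miR-99a-5p by −0.13 (95% interval −0.46 to 0.20, exact p = 0.314, adjusted 0.612). The last was 1.36, 1.72, 1.65 and 1.58 in HFrD, against 1.86, 1.76, 1.83 and 1.44 in chow, and the lowest ratio of each diet was in HFrD replicate 1 and chow replicate 4, the samples with the most miR-99a-5p. miR-125a-5p to miR-125b-5p stood at 0.164, 0.142, 0.112 and 0.192 in HFrD, against 0.211, 0.234, 0.157 and 0.182 in chow. Its difference was −0.38 (95% interval −0.71 to −0.04, exact p = 0.143, adjusted 0.612), with overlapping groups, and −0.28 (exact p = 0.257, adjusted 0.714) with the short form of miR-125a-5p included.

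Among cluster partners, miR-125b-5p to miR-100-5p came closest to separating the diets. The ratio was 0.0726, 0.0979, 0.0949 and 0.0893 in HFrD, against 0.0735, 0.0711, 0.0716 and 0.0671 in chow. HFrD replicates 2 to 4 lay above all chow samples and HFrD replicate 1 lay just below chow replicate 1. The difference was 0.32 (95% interval −0.01 to 0.64, exact p = 0.0571, adjusted 0.571). In limma its adjusted p was 0.292 with all 8 libraries. Without HFrD replicate 1 the difference was 0.41 and passed in limma (adjusted p = 0.0305), so whether it passed there depended on 1 library. Part of miR-125b-5p may come from the chromosome 16 cluster, which this ratio cannot separate. miR-125b-5p to miR-99a-5p differed by 0.19 (95% interval −0.15 to 0.52, exact p = 0.371, adjusted 0.612), by 0.35 without HFrD replicate 1 (limma p = 0.0338, adjusted 0.113) and by 0.08 without chow replicate 4. On chromosome 17, miR-125a-5p to miR-99b-5p differed by −0.20 (95% interval −0.53 to 0.13, exact p = 0.314, adjusted 0.612).

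**Figure D5:**
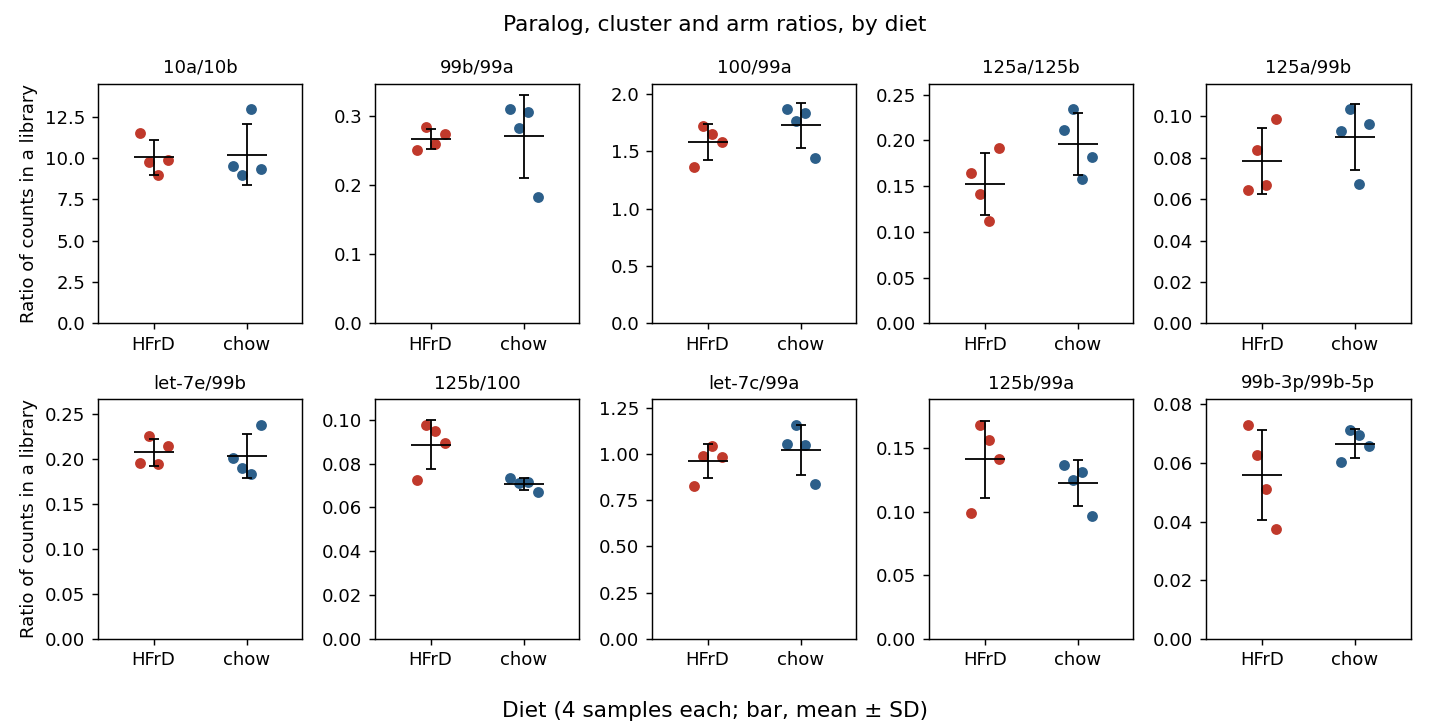
Each panel shows 1 ratio of counts within a library, with the 4 HFrD samples to the left and the 4 chow samples to the right, and bars for mean ± SD. All axes start at 0, and the diets overlap in all 10 panels, most narrowly for miR-125b-5p to miR-100-5p.

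The let-7 miRNAs that lie between the members in the clusters are regulators of growth and differentiation. Of the 6 arms of the 3 let-7 precursors, 5 had counts and 3 passed the filter, and none of these 3 passed the test in either direction. let-7a-5p averaged 2629 ± 115 CPM in HFrD and 2477 ± 209.6 CPM in chow, let-7c-5p 1155 ± 44.7 CPM in HFrD and 1225 ± 54.2 CPM in chow, and let-7e-5p 66.7 ± 8.88 CPM in HFrD and 64.1 ± 5.73 CPM in chow (SD, n = 4 each). Their log2 fold changes were 0.09, −0.08 and 0.05, with adjusted p of 0.523, 0.523 and 0.823 (edgeR), and that of let-7c-5p was 0.04 with library totals. let-7e-5p stood at 0.207 ± 0.0152 of miR-99b-5p in HFrD and at 0.203 ± 0.0245 in chow (SD, n = 4 each; difference 0.03, 95% interval −0.29 to 0.36, exact p = 0.743, adjusted 0.929). let-7c-5p stood at 0.962 ± 0.0936 of miR-99a-5p in HFrD and at 1.02 ± 0.135 in chow (SD, n = 4 each; difference −0.09, 95% interval −0.42 to 0.24, exact p = 0.429, adjusted 0.612).

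The opposite arms were rare, as is usual for passenger strands. The miR-99b-3p to miR-99b-5p ratio was 0.0731, 0.0626, 0.0511 and 0.0374 in HFrD, against 0.0602, 0.0711, 0.0694 and 0.0658 in chow. HFrD varied more widely here and the groups overlapped (difference −0.29, 95% interval −0.63 to 0.04, exact p = 0.286, adjusted 0.612). miR-125b-1-3p, the passenger of Mir125b-1, had 6, 2, 2 and 5 counts in HFrD, against 6, 6, 2 and 5 counts in chow. miR-10a-3p was listed with 3 counts in HFrD replicate 3 and 2 counts in chow replicate 4. let-7e-3p had 4 counts in each of 2 HFrD samples, and let-7c-1-3p had 4 counts in HFrD replicate 1 and 3 counts in chow replicate 3. None of these passengers except miR-99b-3p passed the filter. The other 3p arms of these clusters and Hox loci, miR-10b-3p, miR-99a-3p, miR-100-3p, miR-125a-3p, miR-125b-2-3p and let-7a-2-3p, were not analysed here.

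Of the other miRNAs of Hox clusters, miR-196a-5p, miR-196b-5p and miR-615-3p, none had more than 2 counts in a library and none passed the filter. Among the Hox-cluster miRNAs looked at here, only miR-10a-5p and miR-10b-5p thus had counts enough for the comparison of diets.

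Profiles over the 8 samples were compared by the root mean square difference of centred log2 CPM, as a description of likeness. The nearest to miR-10a-5p were miR-340-5p (0.063) and miR-100-5p (0.079), and the nearest to miR-100-5p were miR-148a-5p (0.068) and let-7c-5p (0.0755). miR-99b-5p was nearest to miR-26a-5p (0.093) and then to let-7e-5p (0.121), its neighbour on chromosome 17. miR-99a-5p was nearest to miR-30d-5p (0.074) and miR-203-3p (0.132), miR-125b-5p to miR-322-5p (0.079) and miR-25-3p (0.093), and miR-10b-5p to miR-194-5p (0.067) and miR-30b-5p (0.115). For the rarest members the differences were larger, with miR-146b-5p (0.201) and miR-206-3p (0.207) nearest to miR-125a-5p, and miR-122-5p (0.256) and miR-99b-5p (0.281) nearest to miR-99b-3p. These members also varied more over the samples, with a root mean square of their own of 0.273 for miR-125a-5p and 0.333 for miR-99b-3p, against 0.0868 for miR-100-5p. A flat profile would lie at that distance from the member, so the nearest to miR-100-5p were little closer than a flat one. The same held for those nearest to miR-99b-3p and miR-125a-5p. The own value was 0.159 for miR-99a-5p and 0.158 for miR-99b-5p, not far above the distance of the second nearest of each. For miR-10a-5p it was 0.114, for miR-10b-5p 0.217 and for miR-125b-5p 0.153.

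Whole liver holds several cell types in which the members are made, and in such bulk samples fewer cells of a type and less RNA per cell cannot be told apart. The 3 endothelial markers (miR-126a-3p, miR-126a-5p and miR-139-5p) summed to 6003 to 6990 CPM in HFrD and 7559 to 10202 CPM in chow, without overlap, and 1 of the 3, miR-126a-3p, was called as lower. The median log2 fold change of these 3 markers was −0.12. It was −0.14 for the hepatocyte markers, −0.19 for the tested biliary ones and −0.21 for the tested muscle ones. For the tested markers of stellate cells, fibroblasts and smooth muscle it was 0.05, for the lymphoid one 0.06 and for the erythroid ones 0.17. With TMM scaling, miR-10a-5p and miR-100-5p had non-overlapping groups, lower in HFrD, though those of miR-100-5p almost met. Groups were apart in 14.1% of the 170 sequences tested on that scale, and over library totals those of both members overlapped. On the TMM scale the groups of miR-10b-5p, miR-99a-5p and miR-125b-5p overlapped, with log2 fold changes of −0.20, 0.00 and 0.19. The part of endothelial cells in these values was not tested. Of the 6 markers of stellate cells, fibroblasts and smooth muscle, 5 were in the table and 4 were tested with none called, and they summed to 3830 to 5240 CPM in HFrD and 4472 to 5016 CPM in chow. The biliary markers, 4 of 5 in the table and none called, summed to 449.6 to 640.4 CPM in HFrD and 515 to 743 CPM in chow. The summed levels were 10.3 to 17.6 CPM in HFrD and 6.997 to 22.2 CPM in chow for the 3 myeloid markers, and 10.9 to 15.9 CPM in HFrD and 6.997 to 15.1 CPM in chow for the 2 lymphoid markers. For the 3 erythroid markers they were 65.3 to 137 CPM in HFrD and 76.4 to 87.9 CPM in chow, and for 2 of the 3 muscle markers they were 549.8 to 633 CPM in HFrD and 541 to 736 CPM in chow, with none called in these 4 lists, of which the myeloid one had no marker past the filter.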

How the data were processed

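Mature miRNA tags were counted in 8 mouse livers. The deposited counts are the authors' raw tag counts per mature miRNA, per the file headers, and a second deposited table holds the authors' normalized tag counts, whole-number scores whose formula the sources used here do not give. The submitters' processing notes name cutadapt 1.9.2, Novoalign 3.02.12 and the build mm10. The library protocol in the labels describes total RNA depleted of ribosomal RNA, and the sources used here do not say how small RNA was selected or how tags that fit several miRNAs were counted.

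The 484 entries were merged by mature sequence into 443 (377 named, 66 predicted by the authors), since entries of one sequence repeat its counts. Blanks (1252 of 3544 cells) were read as 0. Total counts per library ran from 1120035 to 1638036, and counting errors do not cover differences between mice. Sequences were filtered with edgeR's filterByExpr (minimum count 10), which left 170, scaled with TMM and tested with edgeR's quasi-likelihood test (edgeR 4.0.16, R 4.3.3) with Benjamini-Hochberg adjustment and a threshold of 0.05. Ratios took 0.5 counts added to both miRNAs, with exact permutation tests (SciPy 1.17.1). Alternatives used DESeq2 1.42.0, limma 3.58.1 on log2 of the scores plus 1, other scalings and filters, a replicate block and leaving out each library. In simulated counts over the 170 sequences, edgeR called 39 of 40 changed by 1 on the log2 scale, 4 of 20 changed by 0.5 and 1 of 110 unchanged ones. Mature and hairpin sequences came from RefSeq (GRCm38.p6, the assembly of mm10) and gene positions from GENCODE M21.

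The members, gene lists and tests were chosen with earlier results of these data known. The text names all 8 members, the other arms of their precursors, the let-7 miRNAs of their clusters, other Hox-cluster miRNAs, sequences with a member's seed or close to it, and for each member the 2 miRNAs nearest in profile.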

Additional observations from a re-analysis of the deposited data

Results flagged for a closer look

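In groups of 4 samples, a sample was singled out when its gap to the nearest other sample exceeded Dixon's 95% critical share of the group's range, a limit that chance passes in about 1 of 20 groups. Of 56 groups examined, 2 held such a sample. let-7e-5p stood at 53.4 CPM in HFrD replicate 3, against 70.4 to 71.9 CPM in the other HFrD samples. The ratio of miR-10a-5p to miR-10b-5p was 13.0 in chow replicate 3, against 8.96 to 9.52 in the other chow samples. In that library miR-10b-5p was low, at 49.0 CPM on 63 counts, and miR-10a-5p was within the range of the other chow samples, at 639 CPM.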

How the results depend on the processing

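No member passed under any of the 18 alternatives. The number of sequences called, 10 in the reported fit, was 23 (17 higher, 6 lower) with library totals, 1 with upper quartile factors, 22 (15 higher, 7 lower) without a filter, 18 (10 higher, 8 lower) with a count of at least 10 in all samples, 20 (14 higher, 6 lower) with limma on the authors' score and 17 (9 higher, 8 lower) with named sequences only, and it ran from 1 (without chow replicate 2) to 17 (without chow replicate 3) when a library was left out, with 6 without HFrD replicate 4. The reported split was 4 higher and 6 lower. miR-100-5p changed sign with library totals (0.0011), and let-7c-5p with library totals (0.0403), upper quartile factors (0.0121) and the authors' score (0.0386). Leaving out a library gave −0.0736 to 0.0760 for miR-99a-5p and −0.0957 to 0.0734 for miR-99b-5p. It gave −0.0800 to 0.108 for the miR-10a-5p to miR-10b-5p ratio, −0.165 to 0.0883 for miR-99b-5p to miR-99a-5p and −0.0112 to 0.114 for let-7e-5p to miR-99b-5p. With all 8 libraries these values were, in the same order, 0.00, 0.01, −0.01, 0.01 and 0.03, so their direction was not settled. With a library left out, ratios were tested with limma and not with the exact test. Ratios called then ran from 0 to 1, the 1 being miR-125b-5p to miR-100-5p without HFrD replicate 1, against 0 in limma with all 8 libraries. The cause was not tested for any of these.

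The replicate numbers are shared by both diets, but same-numbered samples did not deviate together (correlations of −0.0996 to 0.145), and not every sample correlated best with its own number, so the numbers were not taken as pairs. With the replicate block 15 sequences were called, with 0 members and 0 ratios among the calls. The summing of miR-125a-5p with its short form was chosen after seeing the data. miR-99b-3p and miR-125a-5p had 16 to 43 counts a library. Counting alone gives a coefficient of variation of 19.8% in HFrD for miR-99b-3p, where 35.7% was measured. Leaving out a library moved other ratios by over 1.5 times without a change of sign: −0.21 to −0.06 for miR-100-5p to miR-99a-5p, −0.50 to −0.24 for miR-125a-5p to miR-125b-5p, −0.33 to −0.11 for miR-125a-5p to miR-99b-5p, −0.18 to −0.02 for let-7c-5p to miR-99a-5p and −0.43 to −0.11 for miR-99b-3p to miR-99b-5p.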
